A study of Homo sapiens with 6 samples.

Results

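The genes described here are the expressed ZNF genes, the numbered zinc finger genes of the human genome, in 786-O, a line grown from a human clear cell renal carcinoma. They were taken as the symbols made of ZNF, a number and at most 1 further letter, without ZNF598, with an mRNA value of 2 FPKM (a read share scaled by transcript length) or more in the empty-vector library. Of 19669 genes with a usable symbol 508 carried such a name, and 297 met the threshold. A further 210 lay below it, and ZNF598 stood at 14.1 FPKM. Among the genes with such a name, the members were thus selected on the mRNA value of the empty-vector library alone. The threshold did not use the footprint values or the mRNA values of the other 2 RNA-seq libraries. The members were, however, chosen with earlier results of these data known, so the choice of this gene set may not be independent of the footprint values.

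RNA-seq and Ribo-seq, which sequences the mRNA fragments covered by ribosomes, were each done once for 3 labels, EV (empty vector), WT and MT, giving 6 libraries. The labels do not settle what WT and MT are. By the title and the column names they are cells with PHYHD1-WT and with a PHYHD1 lacking residues 107 to 130, while the design text calls the WT cells untreated and gives the PHYHD1 overexpression to MT. PHYHD1, a member of the iron- and 2-oxoglutarate-dependent dioxygenases, measured 0.092, 118 and 109.5 FPKM in EV, WT and MT, which goes against the word untreated, and WT and MT below mean the libraries labelled so. PHYHD1 footprints measured 0, 222 and 905 TPM in EV, WT and MT, so WT and MT were not alike in them. All groups share the parent line, which lacks functional VHL, and whether a label is 1 clone or a pool is not given. PAX8, a renal lineage factor, stood at 88.5, 75.9 and 94.0 FPKM in EV, WT and MT, and the leukocyte markers PTPRC and CD3E were at 0.071 FPKM or below in all 3 RNA-seq libraries. With 1 library per label and assay there is no replicate error, no test and no p-value, and every difference below is between libraries.

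Most ZNF proteins carry fingers of the C2H2 type, in which a pair of cysteines and a pair of histidines hold a zinc ion and the finger reads a few bases of DNA. The largest class adds a KRAB domain, which recruits the corepressor TRIM28 and, through it, the histone methyltransferase SETDB1 to silence chromatin, often at transposable elements. Many of these genes arose by tandem duplication and lie side by side, chiefly on chromosome 19. Others have single or few fingers and serve in splicing, mitosis or ribosome assembly, so the name ZNF describes a fold and not a function.

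The members were low in mRNA. Their values in EV ranged from 2.03 to 92.3 FPKM with a median of 4.68 FPKM, against 15.3 FPKM for the 9867 other genes above the same threshold. In WT the median was 4.70 FPKM and in MT 4.47 FPKM. All 297 members together made up 0.464%, 0.468% and 0.460% of the RNA-seq values of EV, WT and MT, and 0.234%, 0.236% and 0.244% of the Ribo-seq values. Footprint medians were 3.65 TPM (the share of footprints scaled by transcript length) in EV, 3.67 TPM in WT and 3.65 TPM in MT. No member was at 0 in any library, but 29, 25 and 28 members lay under 1 TPM in the Ribo-seq libraries of EV, WT and MT, and 16 stayed under 1 TPM in all 3. Read totals are unknown. Genes above 0 in a single Ribo-seq library had medians of 0.123, 0.148 and 0.1175 TPM there, so values near or below 1 TPM may stand for a handful of reads and are coarse.

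At the threshold the members ran on without a break. The members with the lowest EV values were ZNF691, ZNF613 and ZNF66 at 2.031, 2.034 and 2.042 FPKM. The genes just below were ZNF519, ZNF699 and ZNF74 at 1.998, 1.988 and 1.973 FPKM. In WT 16 members and in MT 19 members lay under 2 FPKM. Of the 210 genes left out, 39 were listed at 0 in all 3 RNA-seq libraries and 5 had 5 TPM or more in all 3 Ribo-seq libraries. ZNF460, chosen after its values were seen, was the highest of these 5, with 0.584, 0.914 and 0.721 FPKM of mRNA and 22.03, 28.8 and 26.8 TPM of footprints in EV, WT and MT.

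The footprint-to-mRNA ratio, Ribo-seq TPM divided by RNA-seq FPKM, sets footprint density against mRNA level. The units of its parts differ, so its size has no meaning alone and it is read only by comparison, between genes or between labels. Between genes it depends on the transcript lengths by which each column was scaled, which no source used here gives. Members were therefore set beside other genes of the same mRNA level, in steps of mRNA level that double from 2 FPKM. Among the lowest expressed, the ZNF genes were close to the rest. At 2 to 4 FPKM the 119 members of EV had a median ratio of 0.997 against 0.895 for 1075 other genes, the 109 of WT had 0.913 against 0.962, and the 116 of MT had 0.857 against 0.945. In the next step the members lay lower. At 4 to 8 FPKM the medians were 0.703 against 0.866 in EV, 0.719 against 0.895 in WT and 0.669 against 0.908 in MT.

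The distance was wider at 8 to 16 FPKM. There the median ratio of members was 0.610 against 0.932 for other genes in EV, 0.555 against 0.983 in WT and 0.545 against 0.944 in MT. Of the 45 members at that level in EV 33 (73.3%) lay below the median of other genes, as did 31 of 45 in WT and 30 of 44 in MT. Between 16 and 32 FPKM the members were nearer again, at 0.824 against 0.979 in EV, 0.873 against 1.01 in WT and 0.793 against 1.01 in MT. Above 32 FPKM EV and WT had only 8 members and MT had 6, and their medians of 0.300, 0.300 and 0.373 compared with 1.35, 1.34 and 1.33 for 2580, 2610 and 2587 other genes. The exception among those few was ZNF706. In every step the quartile ranges of members and other genes overlapped except above 32 FPKM in EV and WT.

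**Figure D1:**
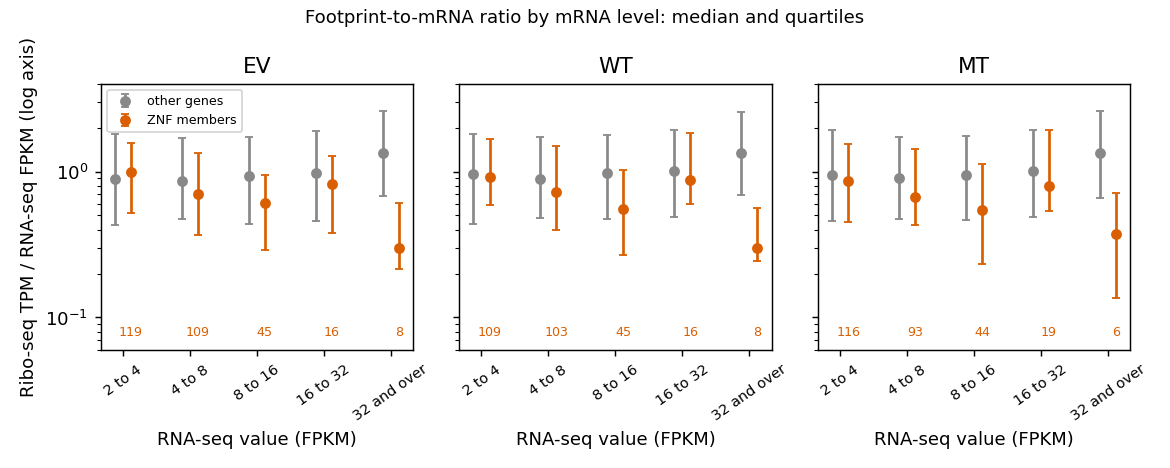
Footprint-to-mRNA ratio (Ribo-seq TPM over RNA-seq FPKM, log axis) against RNA-seq value in 5 steps, for the EV, WT and MT libraries. Points are medians over genes, bars run from the lower to the upper quartile, and orange numbers count the ZNF members in each step; at 8 to 16 FPKM the member medians are 0.610, 0.555 and 0.545, below those of other genes in each panel.

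The members were then read over all levels. For each member the log2 ratio, with 1 added to both values, was compared with the median of other genes in its step, and the outcome is called the level-adjusted ratio below. Its median was -0.15 in EV (297 members), -0.27 in WT (281 members) and -0.31 in MT (278 members), with quartiles of -0.93 and 0.43 in EV. In WT and MT the members under 2 FPKM did not enter. The members below other genes numbered 168 (56.6%) for EV, 162 (57.7%) for WT and 161 (57.9%) for MT. The upper end was thin. Ratios at or above the 90th percentile of other genes were held by 5.05% of the members in EV, 5.69% in WT and 3.597% in MT, while 11.8%, 11.7% and 12.6% were at or below the 10th percentile. Members at 5 FPKM or more, taken alone, had medians of -0.38, -0.50 and -0.41.

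The ratios of the members were correlated between labels, with single members that differed widely, such as ZNF487 and ZNF761 below. The log2 ratios of the 297 members had Spearman's rho of 0.86 between EV and WT, 0.88 between EV and MT and 0.84 between WT and MT (Pearson's r of 0.86, 0.90 and 0.85). These are correlations across genes, which share the annotation and the lengths used for scaling and are not independent replicates, although no library enters both sides. Within a label, mRNA and footprint values of the members had rho of 0.43, 0.44 and 0.44 in EV, WT and MT. Of the 272 members at 2 FPKM or more in all 3 libraries, 134 (49.3%) lay below the median of other genes in every label and 87 (31.99%) above it. Among 9588 other genes these shares were 42.4% and 42.6%. Places at or above the 90th percentile in all 3 labels were held by 5 members (1.84%, against 7.25% of other genes), and at or below the 10th percentile by 21 members (7.72%, against 6.74%).

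The 5 members at the upper end were ZNF330, ZNF695, ZNF706, ZNF593 and ZNF268. ZNF330, a nucleolar protein, had 15.2, 15.7 and 16.3 FPKM of mRNA in EV, WT and MT and 114.9, 118.7 and 126 TPM of footprints, so ratios of 7.58, 7.56 and 7.74. ZNF695, a KRAB zinc finger gene, had less mRNA, 4.77, 4.21 and 4.47 FPKM, and 38.2, 39.6 and 36.4 TPM, with ratios of 8.02, 9.42 and 8.14. It may share reads with the readthrough name ZNF670-ZNF695, so its values are uncertain. For both genes the highest value was under 1.5 times the lowest in either assay.

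ZNF706 encodes a small zinc finger protein and had the most footprints of all members, 282, 228 and 292 TPM in EV, WT and MT at 44.0, 38.6 and 47.3 FPKM of mRNA. Its ratios were 6.42, 5.92 and 6.17. ZNF593, whose yeast counterpart Bud20 accompanies the large ribosomal subunit out of the nucleus, had 78.9, 69.5 and 89.8 TPM at 20.7, 20.4 and 16.7 FPKM. ZNF268, a KRAB zinc finger gene, had 15.5 TPM in the EV library and 29.2 TPM in WT, with MT close to WT, at 4.41, 4.66 and 6.49 FPKM. Also among the 8 highest mean ratios were ZNF350 (ZBRK1, a KRAB protein that binds BRCA1), ZNF614 and ZNF625, all under 3.6 FPKM in every label, and ZNF625 is part of a readthrough name with ZNF20.

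At the lower end stood ZNF664. It had the second highest mean mRNA value of all members, 53.7, 49.3 and 53.4 FPKM in EV, WT and MT, but footprints of only 2.08, 1.86 and 1.08 TPM. Its ratios of 0.0387, 0.0377 and 0.0202 lay at percentiles 0.775, 0.690 and 0.387 among other genes of that mRNA level. ZNF395, a gene induced in hypoxia and abundant in clear cell renal carcinoma, had 49.3, 37.2 and 50.8 FPKM of mRNA and 7.05, 6.11 and 4.93 TPM of footprints. The 3 labels did not differ in the order of these genes, as ZNF664 was below ZNF395 in each.

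Other members with very low ratios were ZNF358, ZNF117, ZNF532, ZNF609, ZNF768 and ZNF337. ZNF358 had 17.7, 14.1 and 15.6 FPKM in EV, WT and MT with 0.972, 1.65 and 1.21 TPM, near the coarse end of the Ribo-seq scale. ZNF117, which overlaps the endogenous retroviral locus ERV3-1 and may share reads with it, had 9.63, 7.74 and 8.64 FPKM with 0.458, 0.711 and 0.561 TPM. ZNF609 had 14.9, 13.7 and 15.7 FPKM with 1.93, 2.59 and 2.17 TPM, and ZNF768 had 16.1, 14.1 and 16.3 FPKM with 2.36, 2.69 and 2.71 TPM. ZNF337 stood at 0.148 TPM in EV, the lowest footprint value of any member there. The plot of mRNA against footprints shows these genes well below the line of equal values.

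**Figure D2:**
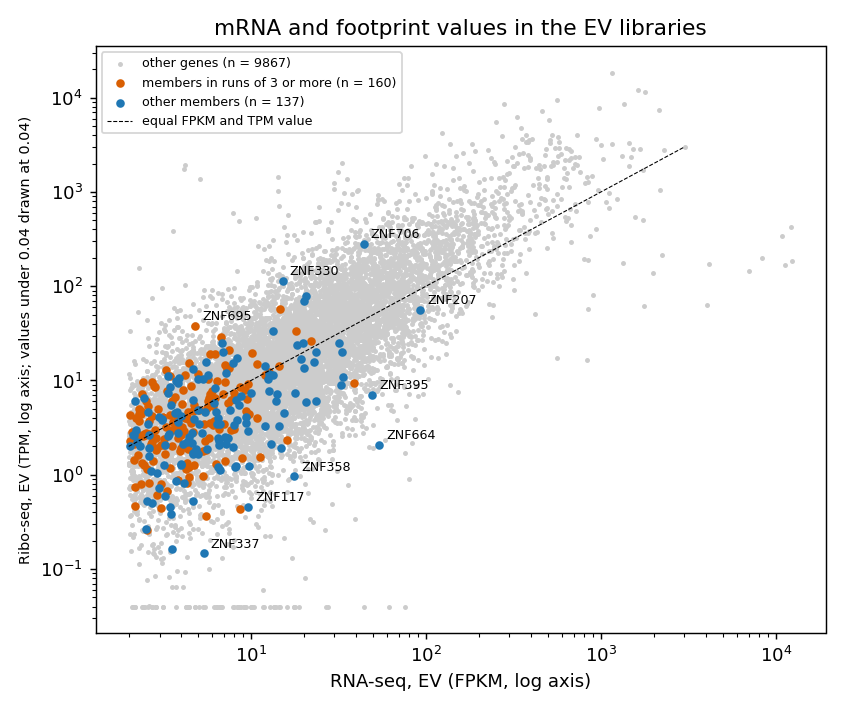
RNA-seq value (FPKM) against Ribo-seq value (TPM) in the EV libraries, both on log axes, with 1 point per gene; grey points are 9867 other genes and coloured points the 297 members, split by whether they lie in a run of neighbouring zinc finger genes. ZNF706, ZNF330 and ZNF695 lie above the dashed line of equal values and ZNF664, ZNF358, ZNF117 and ZNF337 lie far below it.

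Some members with described roles outside transcription are given next. ZNF207 (BuGZ), which binds microtubules and loads BUB3 onto kinetochores, had the most mRNA, 92.3, 113 and 106.1 FPKM in EV, WT and MT, with 56.6, 37.1 and 52.7 TPM. Its ratio was lower than that of most genes at that level in each label (percentiles 22.2, 8.51 and 16.3). ZNF326, a subunit of the DBIRD complex that couples splicing to RNA polymerase II, lay high with 20.2, 21.2 and 19.3 FPKM and 69.4, 61.4 and 65.9 TPM. ZNF622, whose yeast counterpart Rei1 matures the large ribosomal subunit, lay in the middle with ratios of 0.852, 0.807 and 0.793. ZNF638, an RNA-binding nuclear protein that silences unintegrated viral DNA, had nearly level mRNA (33.7, 32.2 and 32.9 FPKM) and footprints of 10.9, 17.1 and 25.6 TPM in EV, WT and MT.

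Abundant members known as transcription factors or cofactors lay on both sides of other genes of their mRNA level, whose EV medians were 0.932 at 8 to 16, 0.979 at 16 to 32 and 1.35 above 32 FPKM. ZNF384 had 20.6, 22.4 and 22.1 FPKM in EV, WT and MT and 5.85, 4.82 and 5.21 TPM, and ZNF146, made almost only of fingers, 38.9, 40.6 and 40.5 FPKM and 9.35, 11.0 and 10.1 TPM. ZNF639 and ZNF592, a partner of ZMYND8, also lay low, with EV ratios of 0.276 and 0.231. ZNF217, an oncogene amplified in breast cancer, ZNF148, ZNF281, ZNF644, which works with the G9a methyltransferase, ZNF277 and ZNF655 had EV ratios between 0.512 and 0.854, also below those medians. Above them were ZNF410, which activates CHD4, at 1.27, ZNF24, a repressor of VEGFA transcription, at 1.85, and the SUMO ligase ZNF451 at 2.51. Of 54 genes listed for a described role 47 were members. Their median level-adjusted ratio was -0.47, -0.40 and -0.43 in EV, WT and MT, against -0.09, -0.21 and -0.24 for the other 250. In WT and MT 47 and 46 of the 47 entered, and 234 and 232 of the 250. The 47 also had more mRNA, with a median of 9.70 FPKM in EV against 4.31 FPKM, and all members at 5 FPKM or more had -0.38, -0.50 and -0.41, so this contrast is not separated from mRNA level. That list was drawn up with earlier results known.

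Genes of other C2H2 families gave a comparison within the fold. The 75 genes named ZBTB, ZSCAN, ZKSCAN, ZFP, KLF or SP at 2 FPKM or more in EV had a median level-adjusted ratio of -0.41, -0.50 and -0.46 in EV, WT and MT. The 31 ZBTB genes, in which a BTB domain pairs the proteins, were lower than that, at -0.60, -0.59 and -0.68. The families were not alike. The 13 ZSCAN genes had -0.19, 0.09 and -0.18, the 11 KLF genes -0.16, -0.36 and -0.10, and the 11 ZFP genes -0.38, -0.75 and -0.21. These gene numbers hold for EV, as genes under 2 FPKM in WT or MT did not enter there. In WT and MT 71 and 70 of the 75 entered, with 30 and 30 ZBTB, 12 and 12 ZSCAN, 10 and 9 KLF and 11 and 10 ZFP genes.

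The members differed by position. Zinc finger genes were ordered along the chromosomes from RefSeq's gene table of GRCh38.p14, and a run was 3 or more protein-coding genes of the ZNF, ZFP, ZSCAN, ZKSCAN, ZIM or ZIK1 names with no other protein-coding gene between them. All 297 members were found there, of which 160 lay in runs, 30 in pairs and 107 alone. The longest run held 27 genes, 13 of them members. Of the 260 members with a RefSeq start site 118 (45.4%) were on chromosome 19, against 442 of the 8193 other expressed genes with one. Of the 118 members there, 102 lay in runs. This split was chosen after the values had been seen, and it is given as a description.

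The median ratio of members in runs was near that of other genes of their level, and the median outside runs was lower. The median level-adjusted ratio in runs was 0.04, 0.06 and 0.02 in EV, WT and MT, with 77 of 160, 69 of 145 and 69 of 144 members below other genes. Outside runs it was -0.40, -0.43 and -0.50, with 91 of 137 (66.4%), 93 of 136 (68.4%) and 92 of 134 (68.7%) below. Members in pairs and alone had medians of -0.31 and -0.46 in EV, -0.58 and -0.39 in WT and -0.41 and -0.51 in MT. Quartiles overlapped widely, from -0.68 to 0.56 in runs and from -1.12 to 0.36 outside them in EV.

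Members in runs also had less mRNA, with a median of 4.23 FPKM in EV against 5.66 FPKM outside, while footprint medians were 3.59 and 3.79 TPM. The split was therefore read within each step. At 2 to 4 FPKM the EV medians were 0.13 in runs (74 members) and 0.11 outside (45), hardly apart, while WT had 0.07 and -0.20 and MT 0.04 and -0.21. At 4 to 8 FPKM they were 0.02 (64 members) and -0.53 (45) in EV, 0.03 and -0.36 in WT, and 0.00 and -0.47 in MT. At 8 to 16 FPKM they were -0.06 (18) and -0.86 (27) in EV, 0.06 and -1.13 in WT, and -0.03 and -0.96 in MT. The upper steps held few members in runs. At 16 to 32 FPKM there were 3, 3 and 4 in EV, WT and MT, with medians of 0.25, 1.15 and 0.75 against -0.29, -0.54 and -0.52 outside. Above 32 FPKM ZNF146 was the single member in a run, and it lay lower, at -2.38, -2.21 and -2.31, than the median outside, at -1.97, -2.01 and -1.40. Genes in runs have similar copies nearby, so reads may be split between copies and the values of single genes there are uncertain.

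**Figure D3:**
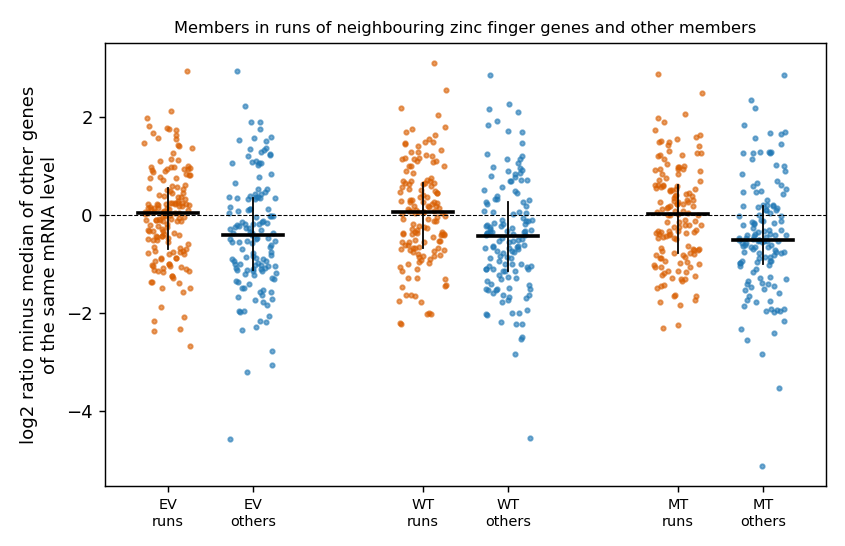
Level-adjusted ratio (log2, 0 is the median of other genes of the same mRNA level) of each member in the EV, WT and MT libraries, for members in runs of 3 or more neighbouring zinc finger genes and for other members. Each point is 1 gene, thick lines are medians and thin lines run between the quartiles; medians in runs are 0.04, 0.06 and 0.02 and those of the others -0.40, -0.43 and -0.50.

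Within the runs the span was wide. ZNF695 and ZNF268, described above, lie in runs, and so do ZNF146 and ZNF768 at the low end. Of the 138 members in runs at 2 FPKM or more in all 3 libraries, 53 lay below other genes in every label and 54 above. Outside runs 81 of 134 lay below and 33 above. Repressors of transposable elements, picked here for that role, had modest values. ZNF91, a repressor of SVA elements, had 4.44, 5.12 and 4.88 FPKM in EV, WT and MT and 1.21, 2.87 and 1.13 TPM. ZNF93, a repressor of LINE-1 elements, had 6.04, 5.18 and 4.03 FPKM and 3.37, 5.80 and 3.65 TPM.

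Start sites were examined for short motifs, as promoters are what the members may share beyond the name. RefSeq's table for GRCh38.p14 held windows of 300 bases, 250 before and 50 after the start, for 260 members and for 8193 of the other expressed genes. CCGGAAG, the kind of letters that factors of the ETS family bind, was sought on both strands and was present in 114 member windows (43.8%), against 21.3% of the other expressed genes and 10.7% of all 27303 windows. ZNF genes under the threshold had it in 33.3% of 168 windows. The median GC content was lower in members (61.7%) than in other expressed genes (65.7%). A match is a description of letters and shows no binding.

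The core of the site read by ZNF143, itself a member, was sought as ACTACA, any 2 bases, then TCC, on both strands, and was found in 29 member windows (11.2%), in 4.39% of other expressed genes and in 2.09% of all windows. ZNF genes under the threshold had it in 13.1% of windows, above the members' share. ZNF143, added for its motif, had 8.82, 12.3 and 11.5 FPKM in EV, WT and MT and 6.89, 6.67 and 9.61 TPM. CCAAT was present in 48.5% of member windows against 36.8%, with 49.4% in ZNF genes under the threshold, and in 56.6% of those in runs against 38.5% of those outside. GGGCGG, the GC box, was in 67.3% against 72.8%, TATAAA in 3.85% against 4.89%, TGACGTCA in 5.0% against 3.49% and CACGTG, an E box, in 5.77% against 10.8%. No motif contains another, a window can hold several, and overlapping matches were not removed. Members with and without CCGGAAG had nearly the same level-adjusted ratio in EV, with medians of -0.13 and -0.12, and -0.18 and -0.30 in WT and -0.17 and -0.39 in MT. With and without CCAAT the medians were -0.03 and -0.28 in EV, 0.03 and -0.38 in WT and -0.15 and -0.42 in MT. With and without the ZNF143-type motif they were -0.01 and -0.13 in EV, -0.41 and -0.26 in WT and -0.59 and -0.27 in MT. These splits were not tested, and CCAAT also went with lying in a run.

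**Figure D4:**
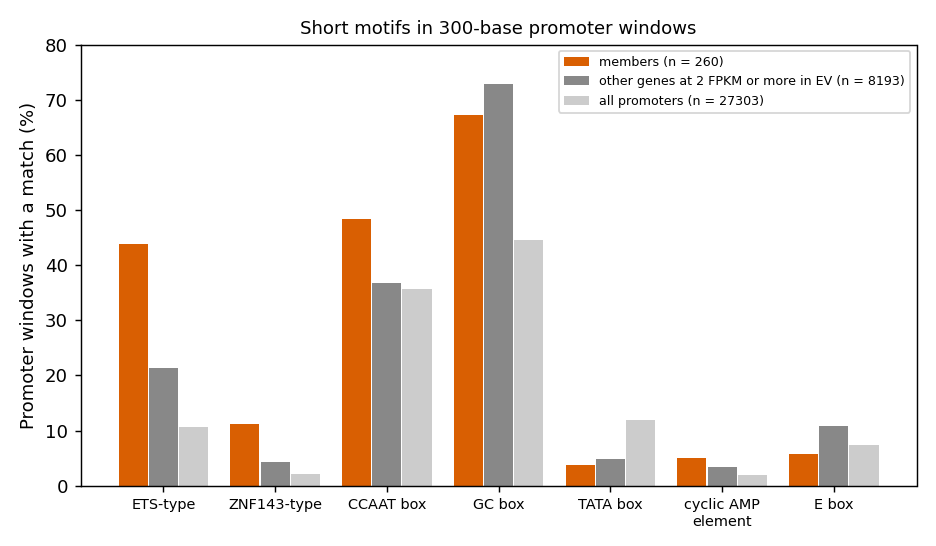
Share of 300-base promoter windows with at least 1 match to each motif on either strand (vertical axis, %), for 260 members, 8193 other expressed genes and all 27303 windows. CCGGAAG (ETS-type) is in 43.8%, 21.3% and 10.7% of them and the ZNF143-type motif in 11.2%, 4.39% and 2.09%.

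The windows of 5 members show these letters at both ends of the ratio range. ZNF268 and ZNF593 had high ratios, ZNF609 and ZNF384 low ones, and ZNF606, with a ratio near 1, was added because it holds both motifs, as ZNF268 does. Each is printed 5′ to 3′ on the gene's own strand, with the ETS-type letters or the ZNF143-type motif, or the reverse complement of either, in capitals. ZNF268 is at chr12:133181245-133181544 (plus strand), ZNF593 at chr1:26169658-26169957 (plus), ZNF609 at chr15:64460328-64460627 (plus), ZNF384 at chr12:6689326-6689625 (minus) and ZNF606 at chr19:58002771-58003070 (minus), all in GRCh38.p14 and across the 5′ end of the first exon.
ZNF268: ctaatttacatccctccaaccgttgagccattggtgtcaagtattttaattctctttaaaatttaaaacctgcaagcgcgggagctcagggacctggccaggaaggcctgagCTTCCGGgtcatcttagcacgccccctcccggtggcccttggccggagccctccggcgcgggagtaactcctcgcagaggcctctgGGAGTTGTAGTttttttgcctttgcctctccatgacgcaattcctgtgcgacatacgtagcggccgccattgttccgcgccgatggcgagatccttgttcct
ZNF593: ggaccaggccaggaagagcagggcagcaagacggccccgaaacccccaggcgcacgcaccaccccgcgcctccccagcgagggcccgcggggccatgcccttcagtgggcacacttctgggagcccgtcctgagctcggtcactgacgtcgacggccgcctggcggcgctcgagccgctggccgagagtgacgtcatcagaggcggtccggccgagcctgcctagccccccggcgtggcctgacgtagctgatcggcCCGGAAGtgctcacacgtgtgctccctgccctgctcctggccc
ZNF609: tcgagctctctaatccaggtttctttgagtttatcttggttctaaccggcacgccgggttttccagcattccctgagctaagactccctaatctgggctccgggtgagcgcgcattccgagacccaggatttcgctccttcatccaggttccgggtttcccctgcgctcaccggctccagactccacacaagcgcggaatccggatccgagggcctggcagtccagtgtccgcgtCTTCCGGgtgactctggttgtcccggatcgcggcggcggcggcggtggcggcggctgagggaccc
ZNF384: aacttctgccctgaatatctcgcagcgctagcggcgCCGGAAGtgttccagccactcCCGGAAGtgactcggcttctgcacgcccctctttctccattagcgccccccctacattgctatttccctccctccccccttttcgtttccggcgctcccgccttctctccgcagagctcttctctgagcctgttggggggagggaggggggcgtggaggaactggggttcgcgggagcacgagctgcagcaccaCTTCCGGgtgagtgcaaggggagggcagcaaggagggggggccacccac
ZNF606: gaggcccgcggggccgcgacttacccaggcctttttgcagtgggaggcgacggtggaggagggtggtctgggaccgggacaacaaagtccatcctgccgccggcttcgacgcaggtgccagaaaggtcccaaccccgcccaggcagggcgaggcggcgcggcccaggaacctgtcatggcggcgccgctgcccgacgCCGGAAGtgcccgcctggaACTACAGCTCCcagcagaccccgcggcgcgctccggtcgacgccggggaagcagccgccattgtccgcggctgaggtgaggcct
ZNF384 holds the ETS-type letters 3 times and the other windows once each. ZNF606 had 3.26, 2.80 and 2.52 FPKM in EV, WT and MT and 3.23, 4.15 and 2.66 TPM.

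In mRNA the members differed little between labels. No member passed a 2-fold difference, taken on log2(value + 1), in any RNA-seq comparison, where 0.499% of all genes passed in WT over EV (0.236% higher and 0.263% lower), 0.29% in MT over EV (0.118% and 0.172%) and 0.508% in WT over MT (0.291% and 0.218%). In genes of the members' mRNA levels 0.616%, 0.542% and 0.768% passed, so that 0 of 297 is close to that background. The highest mRNA value was under 1.5 times the lowest in 252 of 297 members, and the highest footprint value in 145. Other genes were not counted in this way, so it is not shown to be particular to the members. Median log2 differences were -0.04 in WT over EV, -0.05 in MT over EV and 0.03 in WT over MT, against medians between -0.01 and 0.00 over all genes. The choice of members at 2 FPKM in EV favours high EV values, and the first pair of comparisons shares the EV library, so their direction is not read further.

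The members with the largest mRNA differences, named after their values were seen, were few. ZNF286A came nearest to the 2-fold rule, with 7.38, 13.1 and 6.09 FPKM in EV, WT and MT. ZNF320 had 9.50, 4.85 and 5.58 FPKM in EV, WT and MT. ZNF787 had 3.83, 7.22 and 5.44 FPKM and ZNF414 3.78, 6.56 and 5.66 FPKM. ZNF286A is part of the readthrough name ZNF286A-TBC1D26.

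Footprints differed more. Of 277 members measured in WT over EV, 10 were higher and 5 lower by the 2-fold rule (3.36% of all genes passed, 1.74% higher and 1.62% lower). In MT over EV 9 were higher and 8 lower of 279 (background 2.83%, 1.7% and 1.14%), and in WT over MT 8 were higher and 6 lower of 279 (background 3.19%, 1.45% and 1.74%). The member shares were 5.42%, 6.09% and 5.02%. Among other genes with footprint values of the same level the shares were 5.20%, 4.34% and 4.77%, so the members were near that background. In all 31 members passed in at least 1 comparison, and the share of all genes that did so was not computed. Of the 31 members 22 lie in runs, as do 160 of all 297 members. In any library 11 of the 31 reached 10 TPM and 3 reached 20 TPM. Median differences were 0.03, 0.04 and 0.02.

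Of the members that reached 20 TPM, ZNF544 (outside the naming rule, picked for its values) measured 15.1, 36.5 and 34.7 TPM in EV, WT and MT, with mRNA of 10.9, 9.94 and 11.1 FPKM. ZNF12, a KRAB zinc finger gene, stood at 9.23, 25.8 and 12.1 TPM with mRNA of 9.61, 9.22 and 11.2 FPKM. ZNF638 is given above. In ZNF544 the EV library was the low one and in ZNF12 the WT library the high one, and in both the highest mRNA value was under 1.5 times the lowest.

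ZNF468 and ZNF649 had the pattern of ZNF544. ZNF468, likewise picked for its values, stood at 5.12, 12.7 and 12.5 TPM in EV, WT and MT, and ZNF649 at 2.65, 7.12 and 7.19 TPM. The reverse was seen in ZNF444 (7.41, 2.62 and 2.49 TPM) and ZNF616 (6.10, 1.78 and 1.996 TPM). Both comparisons rest on the same EV library here, which is high or low in each of these genes.

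WT gave the highest footprint value in ZNF525, ZNF417 and ZNF595. ZNF525 stood at 2.09, 13.2 and 2.12 TPM in EV, WT and MT with mRNA of 3.18, 2.54 and 3.16 FPKM, and ZNF417 at 2.25, 13.0 and 3.81 TPM. ZNF595 stood at 3.42, 11.8 and 5.69 TPM. ZNF761 was low in WT, with 5.84, 0.849 and 9.32 TPM at 7.37, 7.28 and 6.72 FPKM, and it lies, like ZNF525 and ZNF468, in a run on chromosome 19. ZNF487 had the widest span of any member, 3.17, 8.24 and 0.245 TPM in EV, WT and MT, and its mRNA stood at 4.02, 1.88 and 2.47 FPKM.

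Higher in MT than in WT were ZNF142 (3.93, 1.80 and 9.99 TPM in EV, WT and MT), ZNF112 (2.68, 2.44 and 7.73 TPM) and ZNF778 (4.84, 2.25 and 8.37 TPM). Lower in MT were ZNF140 (6.004, 5.46 and 2.001 TPM) and ZNF528 (3.87, 6.44 and 1.85 TPM), and ZNF200 was highest in EV (13.4, 7.12 and 5.99 TPM). Values for genes in runs are uncertain, since reads of near-identical copies may be split between them. The members named as past the rule are plotted for both assays.

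**Figure D5:**
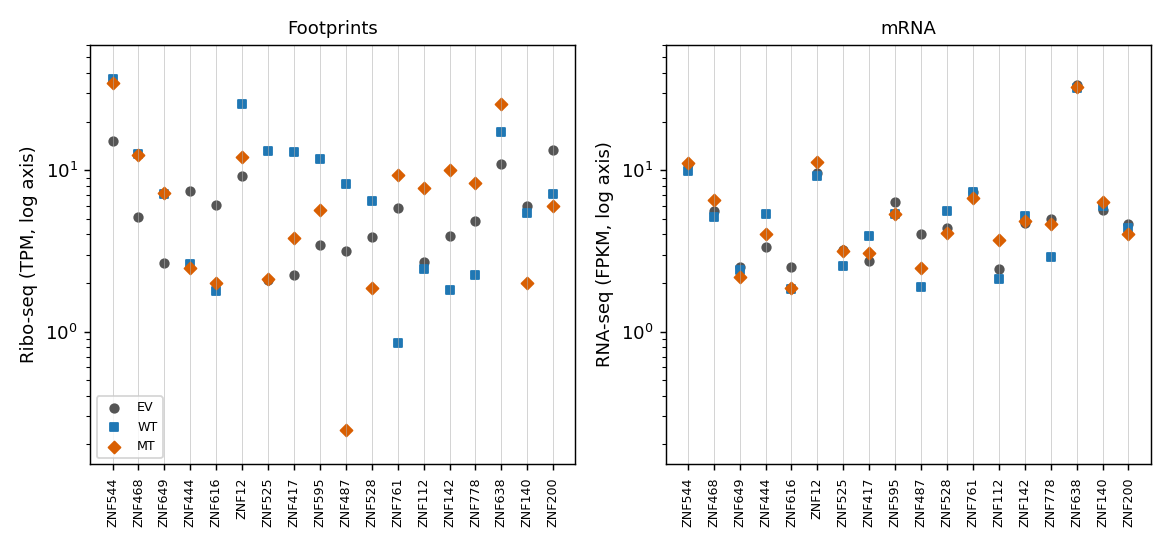
Ribo-seq values (left, TPM) and RNA-seq values (right, FPKM) of 18 of the 31 members past the 2-fold rule in footprints, on log axes, with 1 point per library (EV grey circles, WT blue squares, MT orange diamonds). Footprint values spread further than mRNA values, as in ZNF487 at 3.17, 8.24 and 0.245 TPM. The genes were picked for passing in footprints, so this wider spread follows from the choice.

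Translational efficiency here is the footprint log2 difference minus the mRNA log2 difference, over genes with 1 unit or more in both assays. In WT over EV 14 members were higher and 7 lower of 277 (4.21% of all genes passed, 2.47% higher and 1.74% lower), in MT over EV 10 and 8 of 279 (3.51%, 2.19% and 1.33%) and in WT over MT 13 and 8 of 279 (4.82%, 2.33% and 2.49%). The member shares of 7.58%, 6.45% and 7.53% compared with 6.34%, 5.44% and 7.43% of other genes of the same footprint level. Medians were 0.07, 0.07 and 0.02. ZNF525 (2.44 in WT over EV) and ZNF487 (3.16 in WT over MT) led upward, and ZNF761 (-1.87 in WT over EV and -2.58 in WT over MT) and ZNF444 (-1.48 in MT over EV) downward.

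Further members named for this measure had low footprint values or mRNA that went the other way. ZNF514 stood at 0.433, 3.09 and 1.58 TPM and 8.70, 6.32 and 8.30 FPKM in EV, WT and MT. ZNF780A stood at 1.501, 2.29 and 4.98 TPM and 8.88, 7.78 and 7.18 FPKM, and ZNF101 at 5.49, 8.34 and 12.6 TPM and 4.70, 5.26 and 4.18 FPKM. ZNF354A (21.1, 12.8 and 10.4 TPM), ZNF414, ZNF107 (4.45, 1.45 and 3.50 TPM), ZNF329 (5.39, 2.36 and 7.27 TPM) and ZNF567 (11.5, 8.20 and 19.3 TPM) were the other named genes. Each such value draws on 4 libraries, and it assumes that a label means the same cells in RNA-seq as in Ribo-seq.

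The corepressor side of the pathway was well expressed. All 23 genes of a list of KRAB corepressors and heterochromatin factors were at 2 FPKM or more in EV, and none passed the 2-fold rule in mRNA or footprints in any comparison, against backgrounds of 0.508% or less in mRNA and 3.36% or less in footprints, shares at which a list of this size would hold about as few. MTA1, a subunit of the NuRD complex, came nearest in footprints, with a log2 difference of 0.93 in MT over EV and -0.80 in WT over MT. Its footprints were low, at 2.89, 3.26 and 6.41 TPM in EV, WT and MT. CHD3, a remodeller of the same complex, had -0.79 in WT over MT. TRIM28 stood at 106.1, 122 and 113 FPKM in EV, WT and MT, and at 140.0, 123 and 149 TPM. SETDB1 stood at 13.2, 13.9 and 13.2 FPKM and 11.0, 14.2 and 13.9 TPM. The list's median level-adjusted ratio was -0.03, -0.02 and -0.01 in EV, WT and MT, with 12 of 23 genes below other genes in each.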

How the data were processed

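The authors deposited 1 table of 20307 rows. Its RNA-seq columns were read as FPKM as deposited, since the file headers give no unit and the columns sum to 459938 to 469859; TPM over a larger gene set cannot be told apart. The deposited Ribo-seq columns were read as TPM, since each sums to 1000000. Per the submitters' processing notes the build was human genome build 18. No source used here gives the aligner, annotation or counting. Rows without a name (605) and 7 symbols on several rows were left out. No count test was possible, and read depth is unknown. Differences were taken on log2(value + 1), for genes reaching 1 unit in either library of a pair, and read by a 2-fold rule. Members and lists were chosen with earlier results of these data known. Named genes follow a rule (extremes of mRNA level and ratio, up to 4 each way past the 2-fold rule with 5 units in 1 library, genes at the threshold, described roles at 10 FPKM or more); others are marked. The planned split by KRAB domain and the protein-length bins were not run. Procedures were tested on simulated data, with an assumed read depth for the footprints. The 2-fold rule was scored there only for genes at 10 TPM or more in EV, which 53 of the 297 members reached. The ratio check left out the 1 added to both values. These checks therefore do not cover low footprint values as used here. Python 3.11.15, pandas 2.3.3 and numpy 2.4.6 were used.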

Additional observations from a re-analysis of the deposited data

How the results depend on the processing

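The median level-adjusted ratio over all members stayed below 0 in EV, WT and MT under the settings tried for it. Restricted to 5 FPKM or more the EV, WT and MT medians were -0.38, -0.50 and -0.41. With a step of 1 to 2 FPKM added they were -0.21 in WT and -0.20 in MT, against -0.27 and -0.31 without it. The difference between members in runs and other members was 0.43, 0.49 and 0.52 in EV, WT and MT, and above 0 in every setting tried. It was 0.55 in EV and 0.60 in WT with a pseudocount of 0.1. At 5 FPKM or more it was 0.54, 0.78 and 0.69, and it was 0.37 in WT with runs of 2 or more. Settings on runs were chosen after the data were seen.

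Counts of members past the rule followed the settings. Shares over all genes were computed for the main setting only. The counts below therefore stand without a background and are not read as a result about the members. In RNA-seq a pseudocount of 0.1 gave 1, 3 and 2 members in WT over EV, MT over EV and WT over MT, a pseudocount of 0.5 gave 1 in WT over MT, and a 1.5-fold rule gave 9, 10 and 5. In Ribo-seq a pseudocount of 0.1 gave 29, 29 and 33, a minimum of 10 units 7, 5 and 4, and a 1.5-fold rule 55, 49 and 55. For translational efficiency a pseudocount of 0.1 gave 36 in MT over EV and 41 in WT over MT, a minimum of 10 units 1, 2 and 1, and a 1.5-fold rule 72, 59 and 73. At the minimum of 10 units its median in WT over EV was -0.032. The remaining 84 values moved by at most 0.1 on the log2 scale or 1.5 times for a count. The ratio in WT with the step of 1 to 2 FPKM added was among them. The planned protein-length bins and KRAB split were not run, since protein sequences were not used here. With 1 library per label, none could be left out. No paired analysis was possible because each group holds 1 library.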
